A study of Mus musculus with 8 samples.

Results

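The genes described here are 9 immediate early genes of 3 families: the Egr genes Egr1, Egr2 and Egr3, the Nr4a genes Nr4a1, Nr4a2 and Nr4a3, and the Ier genes Ier2, Ier3 and Ier5. They were chosen by name, with earlier results of these data known. Their rows in the count files are those whose Ensembl identifier carries one of these symbols in GENCODE M21, out of 55414 genes listed. All 9 passed the filter on low counts, which left 16778 genes. In M21 no other gene overlaps any of them. They were measured by RNAseq in neutrophils of the spleen of WT mice and of Cxcr2-/- mice, which lack the chemokine receptor Cxcr2 in every cell of the body, so that effects within the neutrophil and effects of its surroundings cannot be told apart. There were 4 mice per genotype, each giving 1 library, all 10 weeks old, on the FVB background and housed under SOPF conditions, with no treatment named in the labels. The cells were enriched with anti-CD11b beads and then sorted as CD45+ CD11b+ Ly6G+ cells without F4/80, the product of Adgre1.

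Immediate early genes are transcribed within minutes of a signal, from factors already present in the cell, so that no new protein is needed. Most make short-lived mRNAs that are lost again soon after the signal ends. Egr proteins are zinc finger transcription factors, and Nr4a proteins are orphan nuclear receptors that act without a ligand. Ier genes encode small regulators of growth, survival and the stress response. In neutrophils these genes respond to chemoattractants, cytokines and microbial products, and in many tissues they also respond to the dissociation and sorting of the cells themselves. How long each spleen was handled before lysis is not given in the sources used here.

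Counts on genes lay between 34220182 and 46233555 per WT library and between 37549648 and 43789253 per Cxcr2-/- library. Levels are given as CPM, the count of a gene per 1000000 counts on the tested genes of the library, after TMM scaling. Cxcr2 itself, as the check of the genotype, lay between 1719 and 2252 CPM in WT and between 12.9 and 20.7 CPM in Cxcr2-/- mice. Its log2 fold change was -6.84, with a standard error (SE) of 0.19 and an adjusted p of 3.50e-10. This p, like every adjusted p of a single gene below, is from the quasi-likelihood test of edgeR after Benjamini-Hochberg adjustment. The 10 neutrophil markers summed to 32805 to 46942 CPM in WT and 71407 to 87133 CPM in Cxcr2-/- libraries, with S100a8, S100a9 and Ly6g among the 7 that rose, and Csf3r the 1 that fell. Some read pairs were assigned to no feature by HTSeq, the counting program, and are called pairs that met no gene below. Their share was 31.4% to 41.5% in WT libraries and 26.7% to 31.9% in Cxcr2-/- libraries. The counting settings are not given, so that pairs in introns or opposite to a gene may be among them. In sorted bulk cells, fewer expressing cells and less RNA per cell cannot be told apart.

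Of the 9 genes, 7 were lower in Cxcr2-/- neutrophils with an adjusted p under 0.05, none was higher, and 2, Nr4a2 and Ier3, did not pass. Lower genes made up 21.0% of all genes tested and higher genes 23.7%, 44.7% in either direction, by the same test. All 7 fell by at least 1.5-fold, against 15.7% of all genes. The 7 were also those whose WT and Cxcr2-/- libraries did not overlap, against 19.1% of all genes without overlap in this direction and 22.5% in the other. The median log2 fold change of the 9 was -2.15, and that of all genes tested was 0.01. Falls of at least 4-fold were found for all 3 Egr genes, Nr4a1 and Nr4a3, and for 1.84% of all genes tested.

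**Figure D1:**
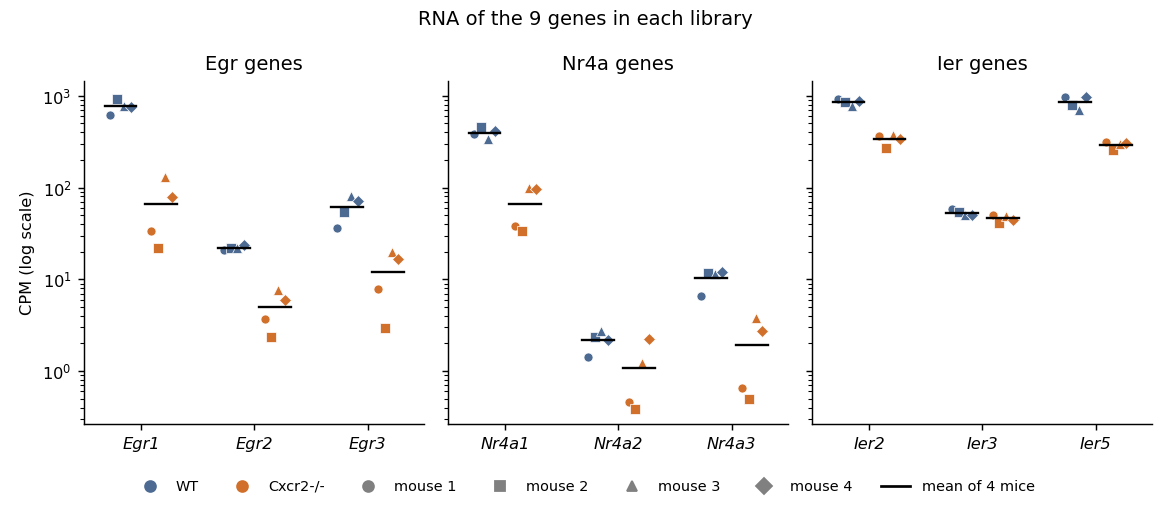
Level of each of the 9 genes in each library, in CPM on a log scale. Each point is 1 mouse, blue for WT and orange for Cxcr2-/-, the shape gives the number of the mouse within its genotype, and the line is the mean of 4 mice; the numbers do not pair mice across genotypes. The points of both genotypes stand apart for 7 genes and overlap for Nr4a2 and Ier3.

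The 3 Egr genes were all lower in Cxcr2-/- neutrophils, Egr1 by the most. Egr1 (ENSMUSG00000038418.8, chr18:34859823-34864984, plus strand, GRCm38) encodes a factor induced by growth factors and by ERK signalling, and in myeloid cells it is linked to the choice of the macrophage fate. It stood at 622.5, 931, 769 and 762 CPM in the 4 WT mice and at 33.2, 21.8, 130.4 and 78.8 CPM in the 4 Cxcr2-/- mice. The lowest WT library thus held 4.77 times the level of the highest Cxcr2-/- library. The means were 771 ± 126 and 66.1 ± 49.5 CPM (SD, n = 4 per genotype), and the log2 fold change was -3.54 (SE 0.45, edgeR adjusted p = 4.86e-05), or 11.7-fold. Among the 16778 genes, Egr1 had the 18th largest fall.

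Egr2 (ENSMUSG00000037868.16, chr10:67535475-67542188, plus strand) encodes a factor best known for the myelination of nerves and, together with Egr3, for the restraint of T cell activation. It was the most even of the 9 genes in WT mice, at 20.7, 21.7, 22.1 and 23.4 CPM, and stood at 3.69, 2.32, 7.70 and 6.003 CPM in Cxcr2-/- mice. Its log2 fold change was -2.15 (SE 0.27, edgeR adjusted p = 4.86e-05), with no overlap between genotypes.

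Egr3 (ENSMUSG00000033730.5, chr14:70077203-70082614, plus strand) is itself a known target of other signal-driven factors and acts in muscle spindles and lymphocytes. It stood at 35.9, 54.2, 81.3 and 71.4 CPM in WT and at 7.84, 2.93, 19.8 and 16.8 CPM in Cxcr2-/- mice. Both genotypes spread more widely than for Egr2, and the lowest WT library was 1.81 times the highest Cxcr2-/- library. The log2 fold change was -2.35 (SE 0.44, edgeR adjusted p = 0.000911). This call was lost when the share of pairs that met no gene entered the fit as a covariate, where the log2 fold change was -1.30 (adjusted p = 0.162).

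Of the 3 Nr4a genes, Nr4a1 and Nr4a3 were lower in Cxcr2-/- neutrophils, and Nr4a2, the least abundant of the 9, did not pass the test. Nr4a1 (Nur77, ENSMUSG00000023034.8, chr15:101254269-101274795, plus strand) is needed for the survival of patrolling monocytes and restrains inflammatory genes in macrophages. It stood at 379, 460, 337 and 414 CPM in WT and at 38.5, 33.8, 99.5 and 95.5 CPM in Cxcr2-/- mice. Its Cxcr2-/- libraries formed a low and a high pair, both below every WT library. The means were 398 ± 52.3 and 66.8 ± 35.5 CPM (SD, n = 4 per genotype), with a log2 fold change of -2.57 (SE 0.32, edgeR adjusted p = 3.71e-05).

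Nr4a3 (Nor1, ENSMUSG00000028341.10, chr4:48045153-48086447, plus strand) acts with Nr4a1 in holding back myeloid growth. It stood at 6.63, 11.8, 11.4 and 12.0 CPM in WT and at 0.657, 0.498, 3.81 and 2.70 CPM in Cxcr2-/- mice. These levels rest on 300 to 586 counts per WT library and 18 to 150 counts per Cxcr2-/- library. The genotypes did not overlap, but WT library 1 stood well below the other WT libraries. The log2 fold change was -2.44 (SE 0.49, edgeR adjusted p = 0.00150). With the share of pairs that met no gene as a covariate it was -1.42 (adjusted p = 0.170), so that this call too was lost.

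Nr4a2 (Nurr1, ENSMUSG00000026826.14, chr2:57106830-57124003, minus strand) is best known for the making and upkeep of dopamine neurons. It stood at 1.41, 2.33, 2.75 and 2.17 CPM in WT and at 0.455, 0.387, 1.22 and 2.21 CPM in Cxcr2-/- mice, from 14 to 116 counts per library. The genotypes overlapped through Cxcr2-/- library 4, which lay above 2 of the WT libraries. The log2 fold change was -1.01 (SE 0.46, edgeR adjusted p = 0.0929). Without that library the log2 fold change was -1.66 (adjusted p = 0.00559), and with the share of pairs that met no gene as a covariate it turned to 0.12 (adjusted p = 0.923).

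The promoters of the Nr4a genes are shown because the 3 share a sequence feature across genes whose changes differed. RefSeq start sites on GRCm38.p6 were matched for 6 of the 9 genes: Egr2, the 3 Nr4a genes, Ier3 and Ier5. For Nr4a1 this site, chr15:101266846, lies within the M21 gene, which begins at chr15:101254269. Bases before that earlier start were not searched. The 250 bases before each start site were searched on both strands, and the stretches below leave out bases that M21 annotates as exon. Capitals mark TGACG, the core of the cAMP response element bound by Creb1 and its relatives, GCGNGGGCG, the sequence that Egr proteins recognise, and TATAAA, the TATA box, on either strand. Sequences run 5′ to 3′ in the direction of transcription, from chr15:101266596-101266845 for Nr4a1, chr2:57124004-57124253 for Nr4a2 and chr4:48045055-48045152 for Nr4a3.
Nr4a1: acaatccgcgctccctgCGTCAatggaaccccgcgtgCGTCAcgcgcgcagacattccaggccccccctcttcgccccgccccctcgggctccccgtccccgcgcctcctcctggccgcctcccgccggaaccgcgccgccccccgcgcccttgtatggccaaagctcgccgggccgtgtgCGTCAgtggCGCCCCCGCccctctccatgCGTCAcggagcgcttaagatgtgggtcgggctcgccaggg
Nr4a2: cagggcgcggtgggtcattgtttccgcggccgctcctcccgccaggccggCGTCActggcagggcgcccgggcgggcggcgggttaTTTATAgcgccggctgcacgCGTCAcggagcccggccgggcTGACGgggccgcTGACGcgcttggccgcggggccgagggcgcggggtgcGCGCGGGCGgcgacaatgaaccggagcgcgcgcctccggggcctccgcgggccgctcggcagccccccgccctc
Nr4a3: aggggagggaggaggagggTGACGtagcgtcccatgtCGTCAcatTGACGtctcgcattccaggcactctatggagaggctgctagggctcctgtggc

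TGACG was found 4 times before the start site of each of the 3 Nr4a genes, with 3 of the 4 matches of Nr4a3 in the stretch shown. It was found in none of the Egr2, Ier3 and Ier5 windows, and in 17.7% of 32817 windows of the same length before all RefSeq start sites. GCGNGGGCG was found once in Nr4a1 and once in Nr4a2, and in 4.70% of all windows. The match in Nr4a1 shares bases with one of GGGCGG, the Sp1 site, and so does the match in Nr4a2. The exact letters TATAAA were found in Nr4a2 alone, on the opposite strand at -164 to -159 from the start site, and in 12.4% of all windows.

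None of the other motifs marked the Nr4a genes alone. No window held a CArG box, the site of Srf (1.47% of all windows), the full element TGACGTCA (1.55%), the AP-1 site TGANTCA (6.75%) or the Nr4a site AAAGGTCA (1.34%). GGGCGG was found in all 6 windows and in 32.7% of all windows. A kappaB motif was found in the windows of Egr2 and Ier3 and in 7.25% of all windows. The median GC content was 67.4% over the 6 windows and 52.4% over all windows. A match in these letters is a description and does not show that a factor bound there.

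Among the Ier genes, Ier2 and Ier5 were lower in Cxcr2-/- neutrophils, with narrow spreads among the Cxcr2-/- libraries, and Ier3 did not pass the test. Ier2 (ENSMUSG00000053560.6, chr8:84661331-84662852, minus strand), a gene of 1 exon, encodes a nuclear protein induced by growth factors. It stood at 934, 850, 780 and 871 CPM in WT and at 364, 271, 373 and 342 CPM in Cxcr2-/- mice. All 4 Cxcr2-/- libraries were below the lowest WT library, which held 2.09 times the highest of them. The means were 859 ± 63.6 and 338 ± 46.3 CPM (SD, n = 4 per genotype), and the log2 fold change was -1.35 (SE 0.12, edgeR adjusted p = 2.67e-06).

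Ier5 (ENSMUSG00000056708.6, chr1:155096361-155099636, minus strand), also a gene of 1 exon, encodes a protein that activates the heat shock factor Hsf1 through a phosphatase. It stood at 974, 801, 693 and 981 CPM in WT and at 314, 257, 300 and 307 CPM in Cxcr2-/- mice. It was the only one of the 9 whose Cxcr2-/- libraries differed less among themselves than its WT libraries, by the ratio of the highest to the lowest (1.22 against 1.41). The log2 fold change was -1.55 (SE 0.13, edgeR adjusted p = 1.83e-06), the smallest adjusted p of the 9.

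Ier3 (IEX-1, ENSMUSG00000003541.7, chr17:35821684-35822923, plus strand) encodes a target of NF-kappaB and ERK that modulates cell death. It stood at 57.7, 54.8, 49.9 and 50.8 CPM in WT and at 50.4, 41.3, 49.5 and 44.8 CPM in Cxcr2-/- mice. The genotypes overlapped, because Cxcr2-/- library 1 lay just above the lowest WT library. The log2 fold change was -0.20 (SE 0.09, edgeR adjusted p = 0.106). Under total-count scaling it was -0.29 (edgeR adjusted p = 0.0215) and under upper-quartile scaling -0.32 (edgeR adjusted p = 0.0132). These scalings also shifted the median log2 fold change of all genes, to -0.08 and -0.11 in turn.

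The stretches before the start sites of Ier5 (chr1:155099637-155099886) and Ier3 (chr17:35821463-35821683), one gene that fell and one that did not pass, are shown for contrast with the Nr4a promoters. Neither held TGACG, GCGNGGGCG or the exact letters TATAAA, so that no base is in capitals. Both hold the near match tataag, which the search did not count, so that a TATA box is not excluded for either gene.
Ier5: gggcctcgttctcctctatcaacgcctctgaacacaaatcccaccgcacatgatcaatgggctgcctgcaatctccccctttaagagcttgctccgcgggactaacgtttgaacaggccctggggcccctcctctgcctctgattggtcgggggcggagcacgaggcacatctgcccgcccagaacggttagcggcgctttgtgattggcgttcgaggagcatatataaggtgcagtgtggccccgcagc
Ier3: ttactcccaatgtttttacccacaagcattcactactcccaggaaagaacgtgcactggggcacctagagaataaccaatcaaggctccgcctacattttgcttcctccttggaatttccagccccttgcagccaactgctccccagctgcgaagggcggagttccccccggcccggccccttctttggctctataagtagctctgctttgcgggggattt

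**Figure D2:**
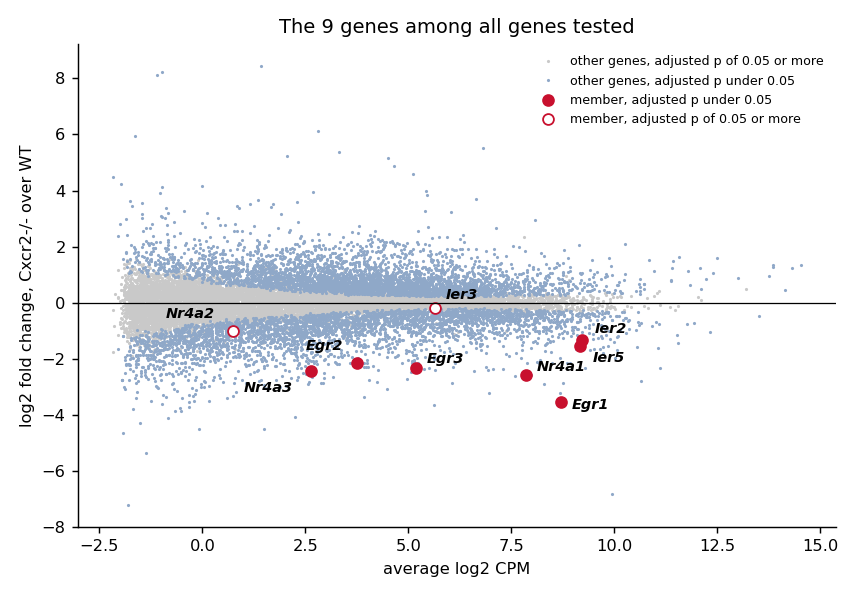
Log2 fold change of each of the 16778 genes tested (Cxcr2-/- over WT) against its average log2 CPM. Grey and blue dots are other genes without and with an adjusted p under 0.05, red circles are the 9 genes, and open circles did not pass; Egr1 has the lowest log2 fold change of the 9, -3.54, and Ier3 lies near 0 at -0.20.

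The Cxcr2-/- mice differed among themselves more than the WT mice for 8 of the 9 genes, by the ratio of the highest to the lowest library. For Egr3 this ratio was 6.77 in Cxcr2-/- and 2.27 in WT mice, and for Nr4a3 it was 7.65 and 1.81. Library 2 of the Cxcr2-/- mice was the lowest of its genotype for all 9 genes. Library 3 was the highest for 6 genes, library 1 for Ier3 and Ier5, and library 4 for Nr4a2. For the 6 Egr and Nr4a genes, Cxcr2-/- libraries 3 and 4 both lay above libraries 1 and 2, and for the 3 Ier genes they did not.

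**Figure D3:**
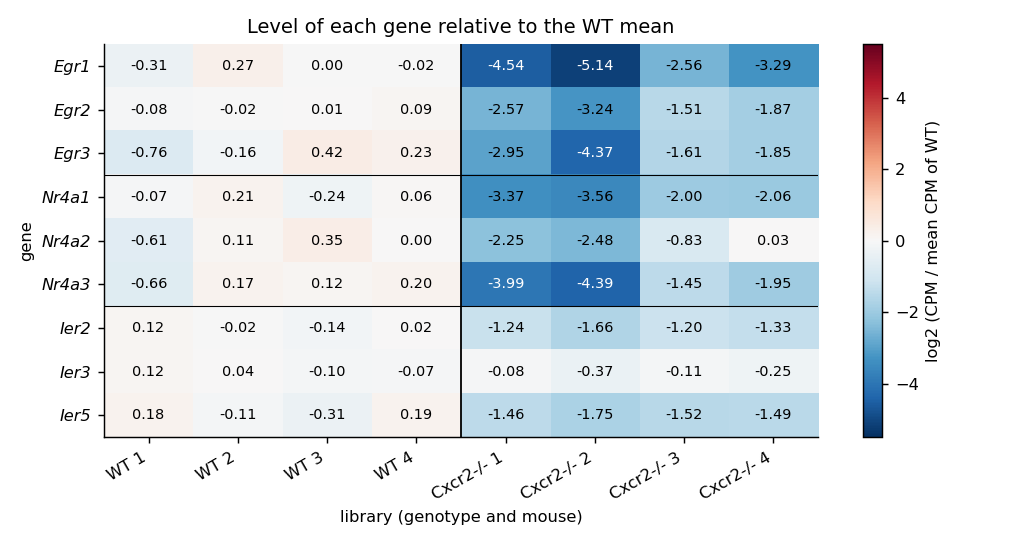
Log2 of the level of each gene in each library over its mean level in WT, with rows for genes and columns for libraries. Blue is below and red above the WT mean; in Cxcr2-/- library 2 Egr1 stood at -5.14 and Ier3 at -0.37.

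RNA of other cell types also differed between these libraries. A score over 46 markers of other cells, the mean of their log2 (CPM + 1), was 1.55 and 1.37 in Cxcr2-/- libraries 1 and 2, 1.86 and 2.02 in libraries 3 and 4, and 1.56 to 2.04 in WT. The 5 B cell markers summed to 62.2 to 131 CPM in WT and 27.4 to 60.7 CPM in Cxcr2-/- libraries, and 3 of them were lower, Cd79b, Ms4a1 and Ighm. The 10 macrophage and monocyte markers summed to 462 to 560 CPM in WT and 219 to 359 CPM in Cxcr2-/- libraries. Csf1r made up most of this sum, at 403 to 499 CPM in WT and 190 to 269 CPM in Cxcr2-/- libraries. Adgre1, whose product the sort gated out, and Csf1r were lower in Cxcr2-/- libraries, and Mertk and Ccr2 higher. The other 6 of these 10 did not pass, so that the sum mainly follows Csf1r. The 7 T and NK cell markers summed to 97.6 to 118 CPM in WT and 91.7 to 140 CPM in Cxcr2-/- libraries. Cd3d made up most of this sum, at 80.1 to 110 CPM in WT and 87.3 to 136 CPM in Cxcr2-/- libraries. Cd3e, Cd3g and Cd8a each stayed at or below 1.35 CPM, so that the sum is no measure of T and NK cells. Cd4 was lower (log2 fold change -2.20). The 5 dendritic cell markers summed to 9.14 to 28.6 and 5.81 to 8.65 CPM, and Zbtb46 (-1.09) and Clec9a (-1.05) were lower. The 8 eosinophil, basophil and mast cell markers summed to 48.8 to 69.5 and 38.2 to 64.7 CPM, a sum in which changes in both directions meet, since Siglecf (-0.57) and Ccr3 (-1.15) were lower and Epx (2.78), Prg2 (2.87) and Ms4a2 (1.45) higher. Erythroid and platelet markers stayed at or below 12.0 and 7.94 CPM in sum in every library, and Itga2b of the latter was lower (-0.56). Mcpt8 and Fcer1a, of basophils and mast cells, were at 0 in every WT library.

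With the score as a covariate, 8 members were lower, Nr4a2 among them (log2 fold change -0.91, edgeR adjusted p = 0.0482), and Egr1 (-3.44), Egr3 (-2.31) and Nr4a3 (-2.38) moved little. The score overlapped between genotypes and joins markers that changed in both directions, so that it does not test the part of other cells. Without Cxcr2-/- libraries 3 and 4, those of their genotype with the most RNA of other cells, 8 members were lower and Egr1 stood at -4.82. Without libraries 1 and 2, 7 were lower and Egr1 stood at -2.87, Nr4a1 at -2.02 and Nr4a3 at -1.67. With the share of pairs that met no gene as a covariate, 5 were lower. This share was itself lower in every Cxcr2-/- library than in every WT library, except that Cxcr2-/- library 4 (31.9%) lay above WT library 1 (31.4%), and its part in the result was not tested otherwise.

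Compared per length of exon, Ier2 and Ier5 led in both genotypes, and the order below them changed. In WT the levels in CPM per kb were 564 for Ier2, 263 for Ier5, 172 for Egr1, 113 for Nr4a1, 47.1 for Ier3, 13.8 for Egr3, 6.47 for Egr2, 1.75 for Nr4a3 and 0.534 for Nr4a2, and no neighbours in this order overlapped. In Cxcr2-/- mice they were 222 for Ier2, 89.9 for Ier5, 41.1 for Ier3, 19.0 for Nr4a1, 14.7 for Egr1, 2.69 for Egr3, 1.45 for Egr2, 0.320 for Nr4a3 and 0.263 for Nr4a2. Ier3 thus took place 5 in WT and place 3 in Cxcr2-/- mice, and Egr1 places 3 and 5. Neighbours overlapped in Cxcr2-/- mice for Nr4a1 and Egr1, for Egr3 and Egr2, and for Nr4a3 and Nr4a2. As a share of the summed CPM per kb of its own family, Egr1 made up 87.3% to 91.7% in WT and 72.1% to 81.1% in Cxcr2-/- libraries, and Ier3 4.90% to 5.74% and 11.1% to 12.5%. Nr4a1 made up 97.4% to 98.7% of the Nr4a sum on the same scale in WT and 96.5% to 98.2% in Cxcr2-/- libraries.

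Members of one family did not all change to the same extent. The log2 ratio of both genes of a pair was taken in each library and compared between genotypes, over the 3 pairs of each family, by two-sided exact permutation. With 4 mice per genotype the smallest p that this test allows is 0.0286. The ratio differed for 6 of the 9 pairs (exact permutation p = 0.0286 each, 0.0429 after Benjamini-Hochberg adjustment over the 9 pairs). These ratios do not depend on how the libraries are scaled.

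Egr1 fell by more than its relatives. Its log2 ratio to Egr2 was 5.12 ± 0.22 in WT and 3.55 ± 0.43 in Cxcr2-/- mice (SD, n = 4), a difference of -1.57, and its ratio to Egr3 differed by -1.24. Nr4a1 and Nr4a3 both fell relative to Nr4a2, with differences of -1.41 for Nr4a1 over Nr4a2 and 1.57 for Nr4a2 over Nr4a3. Ier2 and Ier5 both fell relative to Ier3, with differences of -1.16 for Ier2 over Ier3 and 1.34 for Ier3 over Ier5.

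The 3 other pairs did not pass. The difference was 0.33 for Egr2 over Egr3 (exact permutation test, adjusted p = 0.450), 0.15 for Nr4a1 over Nr4a3 (adjusted p = 0.686) and 0.18 for Ier2 over Ier5 (adjusted p = 0.184). The log2 ratio of Egr2 to Egr3 ranged from -1.88 to -0.79 in WT and from -1.49 to -0.33 in Cxcr2-/- mice, so that a modest difference could not have been seen. That of Ier2 to Ier5 was tighter, from -0.17 to 0.17 in WT and from 0.08 to 0.32 in Cxcr2-/- mice.

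**Figure D4:**
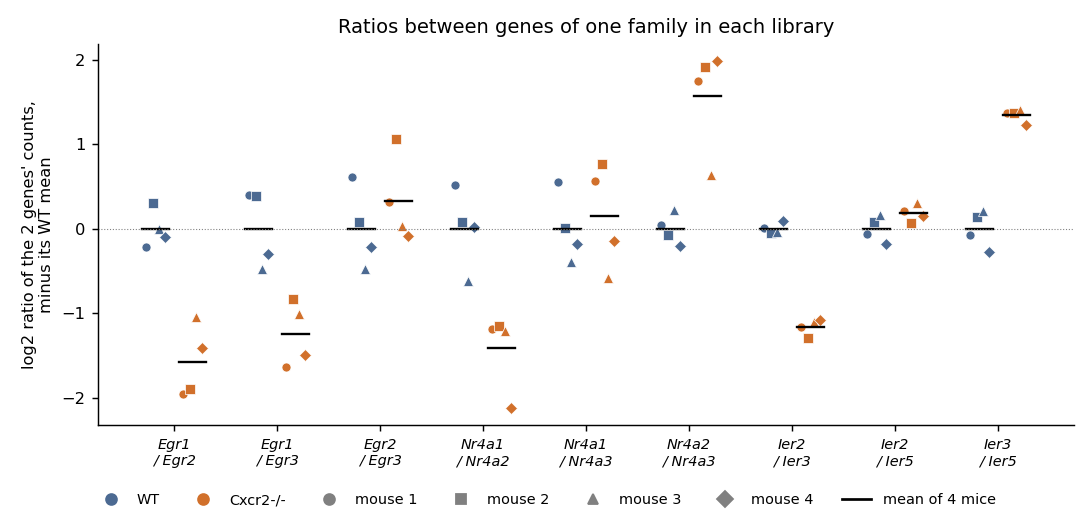
Log2 ratio of the counts of both genes of each within-family pair in each library, minus its mean in WT. Each point is 1 mouse, blue for WT and orange for Cxcr2-/-, and lines are means of 4 mice; the genotypes stand apart for 6 pairs and overlap for Egr2 with Egr3, Nr4a1 with Nr4a3, and Ier2 with Ier5.

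The profiles over the 8 libraries were compared by the root mean square of the difference in log2 CPM, after each gene was centred on its mean, so that a smaller value means a more alike profile. Among the 9 genes, Ier2 and Ier5 were the closest (0.144) and Egr1 and Ier3 the farthest (1.96). Across families the closest were Egr2 and Nr4a1 (0.302), closer than Egr2 was to Egr1 (0.846) or Egr3 (0.458). Each profile holds only 8 libraries of both genotypes, so that the change between genotypes is part of it.

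Outside the 9, the protein-coding genes most like Egr1 were Atf3, a stress-induced factor (0.360), Ptgs2, the inducible cyclooxygenase (0.390), and Ccrl2, a receptor-like protein that binds chemerin (0.418). Egr2 was nearest to Samd11 (0.135), Dusp1, a phosphatase of MAP kinases (0.188), and Btbd19 (0.197). Egr3 was nearest to the chemokine Ccl3 (0.421), the AP-1 subunit Fosb (0.437) and Samd11 (0.450). The immediate early and chemokine genes among these all fell in Cxcr2-/- mice, with log2 fold changes between -3.22 for Ptgs2 and -2.35 for Dusp1. Because these genes were chosen for profiles like those of the Egr genes, such falls follow from the choice.

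Nr4a1 was nearest to Ppp1r15a, which reverses the stress block on translation (0.166), to Dusp2 (0.178) and to Hcar2, a receptor of hydroxybutyrate and niacin (0.234). Nr4a3 was nearest to Ccl3 (0.324), Ccrl2 (0.360) and Tgif1 (0.371), and Nr4a2 to Mast4 (0.309), Dnal1 (0.341) and Noc2l (0.344). Ier2 was nearest to Tnfaip2 (0.0772), Rilpl2 (0.0864) and the stress factor Ddit3 (0.104), and Ier5 to Adgre5 (0.0768), Neurl3 (0.0890) and the AP-1 subunit Jund (0.103). Ier3 stood beside genes that did not pass the test, namely Rela, the p65 subunit of NF-kappaB (0.0461), Puf60 (0.0689) and Bsdc1 (0.0732). The choice by profile favours such genes, since Ier3 did not pass either.

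Of 8 listed relatives and partners of these families, 5 were tested, of which 2 were lower, 1 was higher and 2 did not pass, with a median log2 fold change of -0.15. Nab1 and Nab2 encode corepressors that bind Egr proteins, and they moved apart. Nab1 lay between 46.7 and 54.9 CPM in WT and between 66.4 and 77.7 CPM in Cxcr2-/- mice (log2 fold change 0.46, SE 0.09, edgeR adjusted p = 0.00133). Nab2, itself a known target of Egr1, lay between 3.53 and 4.98 CPM in WT and between 1.97 and 3.11 CPM in Cxcr2-/- mice (log2 fold change -0.81, SE 0.20, edgeR adjusted p = 0.00585).

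Rxra, the retinoid receptor that pairs with Nr4a1 and Nr4a2, fell from between 36.6 and 51.2 CPM to between 24.9 and 29.5 CPM (log2 fold change -0.78, SE 0.11, edgeR adjusted p = 0.000135). Rxrb (-0.15, adjusted p = 0.190) and Ier3ip1, whose product binds Ier3 (0.37, adjusted p = 0.0703), did not pass on the same log2 scale. Egr4, the remaining Egr gene, had no count in any of the 8 libraries, and Ier5l and Rxrg did not pass the filter, with at most 0.305 and 0.160 CPM.

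The transcription factors and kinases that carry signals to these promoters changed in both directions, with log2 fold changes between -0.78 and 0.64. Of 19 listed, 18 were tested, of which 7 were lower, 5 higher and 6 did not pass, with a median log2 fold change of -0.09. The remaining input, Rps6ka4, was not matched to a single counted gene, so that its level is not known here. Of all genes tested, 21.0% were lower and 23.7% higher. Srf, which binds the CArG box, lay between 42.1 and 62.9 CPM in WT and between 44.2 and 66.9 CPM in Cxcr2-/- mice (log2 fold change -0.02, edgeR adjusted p = 0.915), and its sign turned with single libraries left out. Of the partners that bring ERK signals to Srf, Elk3 (-0.57) and Elk4 (-0.30) were lower and Elk1 (0.36) was higher. The actin-sensing partners Mrtfa (0.41) and Mrtfb (0.64) were higher.

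Creb1, which binds the cAMP response element, was lower (-0.30), and its relatives Atf1 (-0.17) and Crem (-0.45) did not pass. Neither did their coactivators Crtc1 (0.15), Crtc2 (0.12) and Crtc3 (0.19). Mef2a (-0.60), Mef2c (-0.78) and Mef2d (-0.57), which carry calcium signals to Nr4a1, were lower. Of the kinases downstream of ERK, Rps6ka1 (0.54) and Rps6ka3 (0.26) were higher and Rps6ka5 (-0.63), also downstream of p38, was lower. Of 19 alternative settings, the call of Rps6ka3 was lost under 16, of Elk1 under 11, of Mrtfa under 10, of Creb1 under 6 and of Elk4 under 5, each with some single libraries left out, and those of the other inputs under at most 2. All these values are log2 fold changes of mRNA and do not measure the activity of the proteins.

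**Figure D5:**
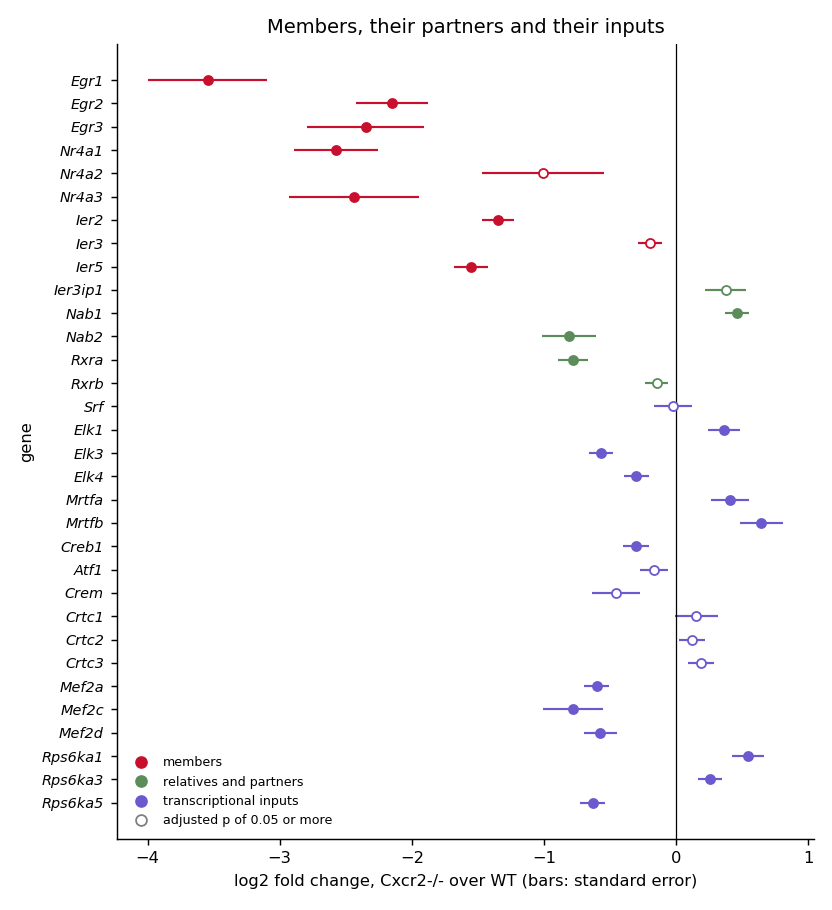
Log2 fold change (Cxcr2-/- over WT) of the 9 genes in red, of the 5 tested relatives and partners in green and of the 18 tested transcriptional inputs in violet. Bars are 1 SE on each side and open circles did not pass; the inputs lie between -0.78 and 0.64, and 7 of the 9 genes lie at or below -1.35.

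Other immediate early genes were mostly lower too. Of 39 listed, 37 were tested, of which 32 were lower, against 21.0% of all genes tested. Of the rest, 1 (Nfil3, 0.36) was higher, against 23.7% of all genes, and 4 did not pass (Fosl1, Myc, Klf4 and Dusp4). The median log2 fold change of the 37 was -1.52. This list was chosen with earlier results of these data known, so that it is not independent of them. The largest falls were those of Ptgs2 (-3.22), Atf3 (-3.21), Fos (-2.82), Fosb (-2.57) and Ppp1r15a (-2.41), beside -3.54 for Egr1.

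Heat shock genes, which also respond to the stress of cells, changed in both directions. Whether stress of handling had a part in any of these changes was not tested. Of 12 listed, 11 were tested, of which 3 were lower, 1 was higher and 7 did not pass, with a median log2 fold change of -0.24. By the same test, 21.0% of all genes were lower and 23.7% higher. Those that passed were the chaperone genes Hspe1 (-1.28), Dnaja1 (-1.08), Dnajb1 (-0.62) and Hsp90ab1 (0.73). Hspa1a and Hspa1b, the inducible Hsp70 genes, did not pass (-0.32 and -0.29) and had no more than 7.60 CPM in any library.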

How the data were processed

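RNA of sorted spleen neutrophils was depleted of ribosomal RNA and made into strand-specific libraries. After trimming, the authors used STAR to align the reads to mm10 and HTSeq to count them, and deposited raw, whole counts for each gene. The strand setting and the annotation of the counting are not given in the sources used here. Of 55414 genes, 52133 had an entry in GENCODE M21, mostly in another version (52098), and 3281, with 1.42% of the counts, had none. HTSeq's own totals, 42.4% to 53.6% of all pairs, stayed out of library sizes and tests.

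Counts were compared with edgeR 4.0.16 (R 4.3.3): filterByExpr, TMM, quasi-likelihood test of 4 Cxcr2-/- against 4 WT libraries, Benjamini-Hochberg over 16778 genes, with a threshold of 0.05. Fitted SEs are on the log2 scale. Groups and replicate numbers came from the sample labels. Chi-square per gene between replicates of a genotype was 24.3 to 98.3, above sampling noise, and edgeR's common biological coefficient of variation was 0.202. In simulated counts of this comparison for 16778 genes, 98% of genes changed 4-fold and 70% of those changed 2-fold were recovered. Within-family log2 ratios used a pseudocount of 0.5 counts. Promoters came from RefSeq (GRCm38.p6). Members and lists were chosen with earlier results of these data known. The genes named in the text are the 9 members, the relatives, partners and inputs, the 5 largest passing changes of the other lists, the 3 most similar protein-coding genes per member (mean log2 CPM of at least 1) and Cxcr2. Nfil3, Fosl1, Myc, Klf4, Dusp4, Hspa1a, Hspa1b and single markers were named after their values were seen.

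Alternatives were DESeq2 1.42.0, RLE, upper-quartile and total-count scaling, no filter, at least 10 counts in every library, a replicate block, covariates for RNA of other cells and for pairs that met no gene, each library left out, a pseudocount of 5, and, chosen after marker levels were seen, pairs of Cxcr2-/- libraries left out. Results that rest on 1 listed marker are not reported here.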

Additional observations from a re-analysis of the deposited data

Results flagged for a closer look

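Nr4a3 in WT library 1, at 6.63 CPM, stood apart from the other WT libraries, which lay between 11.4 and 12.0 CPM. The gap to the nearest of them was 0.875 of the whole WT range, above Dixon's critical value for 4 samples. It was the 1 such case among 31 groups of 4 libraries examined, and chance alone flags about 1 in 20 groups. WT library 1 was also the lowest of its genotype for Egr1, Egr2, Egr3 and Nr4a2. Nr4a3 kept an adjusted p of at most 0.00463 in edgeR with any 1 library left out.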

How the results depend on the processing

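The number of members that were lower lay between 5 and 8 over 19 alternatives, and none was higher under any of them. Egr1, Egr2, Nr4a1, Ier2 and Ier5 kept their direction and passed under all 19, and Egr3 and Nr4a3 under all but the covariate for pairs that met no gene. Under that covariate, 1341 genes were lower and 1502 higher by at least 1.5-fold with an adjusted p under 0.05 (2628 each in the reported comparison), 1 relative or partner was lower and 0 higher, 2 inputs were lower and 0 higher, 0 other immediate early genes were higher, and Nr4a2 turned to 0.12. Nr4a2 passed with DESeq2 (adjusted p = 0.0477), without a filter (0.0311), with the covariate for other cells (0.0482), without Cxcr2-/- library 4 (0.00559) and without Cxcr2-/- libraries 3 and 4 (0.000164), and Ier3 under upper-quartile and total-count scaling.

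Numbers of higher genes in the lists are small. Higher inputs numbered 2 under upper-quartile and total-count scaling and the covariate for other cells, 3 without a filter and 1 without Cxcr2-/- libraries 1 and 2. Higher other immediate early genes numbered 0 under both scalings and without Cxcr2-/- libraries 3 and 4, where 5 heat shock genes were lower. Higher heat shock genes numbered 2 with DESeq2, without a filter, with the replicate block, with the covariate for other cells and without Cxcr2-/- libraries 1 and 2. With 1 library left out at a time, 1 to 2 relatives, 2 to 4 inputs, 0 to 1 other immediate early genes and 1 to 2 heat shock genes were higher, and the log2 fold change of Srf ran from -0.15 to 0.0505. It was 0.0721 without Cxcr2-/- libraries 3 and 4, where Crtc1 was at -0.00056, and Crtc2 was at -0.0010 under upper-quartile scaling. Upper-quartile and total-count scaling also moved the share of these calls of at least 1.5-fold that were higher from 50% to 38.0% and 40.7%. The cause of these shifts was not tested.

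Libraries with the same number are different mice, and their deviations did not move together (r = 0.12, -0.19, 0.16 and -0.26). With the replicate number as a block, Nr4a2 had a log2 fold change of -1.27 (edgeR adjusted p = 0.0287) and 8 members were lower. For the within-family ratios, leaving out a library leaves 3 mice against 4, where the exact permutation test cannot go below 0.0571, and a pseudocount of 5 counts left 6 pairs that differed. Depth limits Nr4a2 most, with 14 to 116 counts per library.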
